A study of Macaca fascicularis with 4 samples.

Results

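Presomitic mesoderm is the unsegmented paraxial mesoderm on either side of the neural tube, from which the somites bud off in sequence at the anterior end. In the E24 library of a cynomolgus monkey (Macaca fascicularis) series, 423 of 10639 cell barcodes (3.98%, exact binomial 95% interval 3.61 to 4.36%) were taken as such cells, out of 27626 barcodes in all. The cells were selected on their counts: a barcode was taken if it held 1 or more unique molecular identifiers (UMIs, counts of captured transcripts) of TBX6, the T-box factor of paraxial mesoderm, and 1 or more UMIs of HES7, FGF17 or DKK1. These 4 genes are called the rule genes, and their values are given as a description. The other 10216 barcodes of the library were the comparison.

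The series title names the embryonic origin of the gonadal somatic cells as its subject, in mice and monkeys. The 4 monkey stages, with 1 droplet library of transcript 3′ ends apiece, were embryonic days 24 (E24), 28, 31 and 37, which are Carnegie stages 11, 13, 14 and 18. The embryos are described by stage alone, with no treatment or genetic change. At E24 the trunk was used, after the extraembryonic membranes, the heart with all tissue in front of it, and the posterior growth zone with the primitive streak had been cut away. The tissue at the later stages was the urogenital region. The E24 cells therefore came from a trunk whose most posterior end was not loaded.

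The E24 library held 115332663 UMIs. Presomitic mesoderm cells had a median of 10716 UMIs and 3185 genes (3780 to 41607 UMIs), and the other barcodes a median of 9965.5 UMIs and 3069.5 genes (3736 to 57569 UMIs). The same rule was passed by 6 barcodes at E28, 1 at E31 and 2 at E37, and none of these 9 held HES7. E24 shared 74, 111 and 71 barcode sequences with the E28, E31 and E37 libraries, and 6, 4 and 2 of the presomitic mesoderm cells were among them. With 1 library a stage there is no replicate of any value, so no test was made. Levels are UMIs summed over a set of barcodes and scaled by the set's total (CPM), and ratios have exact 95% intervals that cover counting error only. A gene was called higher or lower at a ratio of 2-fold or more, among genes with 100 or more UMIs in the library and without the rule genes. By that measure 455 of 13598 genes (3.35%) were called higher in presomitic mesoderm cells and 1485 (10.9%) lower, and the median log2 ratio of all genes was −0.03.

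Cells enter the presomitic mesoderm from the primitive streak and later the tail bud, and leave it anteriorly as somites. FGF and WNT ligands are strongest at its posterior end, and retinoic acid made by the somites acts from the anterior side. Between them the segmentation clock runs, an oscillation of NOTCH, FGF and WNT target genes such as HES7 and LFNG, and where it stops, MESP2 and the RIPPLY factors set the next somite boundary. Most of this is known from mouse and chick embryos.

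The rule genes were unevenly shared among the cells. TBX6 was present with 1 UMI in 162 cells, with 2 in 101 and with 3 or more in 160, up to 12. FGF17, an FGF ligand, was found in 359 cells (84.9%), HES7, the repressor at the core of the clock, in 326 (77.1%), and DKK1, a secreted WNT inhibitor, in 190 (44.9%). All of HES7, FGF17 and DKK1 were present in 143 cells, HES7 with FGF17 in 134, FGF17 alone in 55, HES7 alone in 44, FGF17 with DKK1 in 27, DKK1 alone in 15 and HES7 with DKK1 in 5. Presomitic mesoderm cells held 82.0% of the library's TBX6 UMIs. Just inside the rule lay 37 cells with 1 TBX6 UMI and 1 UMI over the other rule genes. Just outside it lay 158 barcodes with TBX6 but no HES7, FGF17 or DKK1, of which 122 had 1 TBX6 UMI, and 224 barcodes with both HES7 and FGF17 but no TBX6.

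Most markers that the rule did not use fitted the label. DLL3, a NOTCH ligand of the presomitic mesoderm, stood at 120.1 CPM in presomitic mesoderm cells and 10.9 CPM in the other barcodes, DLL1 at 232 and 25.1 CPM, RIPPLY2 at 7.75 and 1.15 CPM, and MESP2 at 64.8 and 6.98 CPM. LFNG, which glycosylates NOTCH, stood at 17.9 and 8.38 CPM. It was also at 18.3 CPM in endothelial barcodes (those with CDH5 and PECAM1), so it did not set presomitic mesoderm cells apart from them. MSGN1, a helix-loop-helix factor that defines the posterior presomitic mesoderm in the mouse, was almost absent: 10 UMIs in 10 cells, against 2 UMIs in the other barcodes, and it had too few UMIs to be called.

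Of the markers listed for other tissues, most were lower in presomitic mesoderm cells, except those of neuromesodermal progenitors, of which 4 of 6 were higher and 1 lower (median log2 ratio 1.99); that list shares genes with the caudal list. All 7 lateral plate markers, all 7 endothelial markers, all 7 erythroid markers and all 6 tested neural tube markers were called lower, with medians on the log2 scale of −2.54, −2.79, −4.97 and −2.1. Of the notochord markers 4 of 6 were lower (median −1.95) and none higher, with NOTO at 0 UMIs and SHH at 1 UMI. Of the macrophage markers 5 of 6 were lower (median −4.08), and C1QA, C1QB and TYROBP were at 0 UMIs. Of the neighbouring intermediate mesoderm, which forms the kidney, 3 of 7 markers were lower and none higher (median −0.97), and of the surface ectoderm markers 4 of 7 were lower and 1 higher (median −1.05); OSR1 was at 24.3 CPM in presomitic mesoderm cells and 14.9 CPM in the other barcodes.

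Gut endoderm had 4 of 6 tested markers lower (median −2.41), limb and body wall 4 of 5 (−2.26), surface ectoderm 4 of 7 with 1 higher (−1.05) and neural crest 3 of 5 (−1.05). Free RNA was gauged in 233 endothelial barcodes, marked by CDH5 and PECAM1, with a median of 10632 UMIs. After every barcode had been thinned to 3500 UMIs, TBX6 and HES7 were found in 0 of them, which allows a share of up to 1.29%, FGF17 in 0.858% and DKK1 in 3.00%. In presomitic mesoderm cells thinned in the same way the shares were 57.9%, 53.9%, 68.6% and 26.7%. These cells were selected on the same genes, and endothelial barcodes that passed the rule were not in the endothelial set. The gap between the sets in these genes was therefore fixed in part by the selection. Embryonic globin HBE1, from blood, was found in 22.5% of thinned presomitic mesoderm cells and 24.5% of thinned endothelial barcodes, so it is read as background. The doublet caller Scrublet called 0 of 10639 barcodes and had not worked. Taking out the 906 barcodes with the highest scores, the number expected at this loading, removed 56 presomitic mesoderm cells (13.2%).

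Genes of mesoderm leaving the primitive streak and of the presomitic mesoderm were raised as a group. Of 22 tested genes on this list 15 were higher and 2 lower, with a median log2 ratio of 1.5, beside 3.35% higher and 10.9% lower among all genes. MIXL1, a homeobox factor of the streak, stood at 22.0 CPM in presomitic mesoderm cells and 0.589 CPM in the other barcodes (37.4-fold, 27.2 to 51.7), and was found in 56 of the cells (13.2%). APLNR, the apelin receptor, stood at 296 and 36.9 CPM (8.01-fold, 7.54 to 8.51), although after thinning it was also found in 62.2% of the endothelial barcodes, which express it. CITED1, a transcriptional co-regulator, was 9.91-fold higher (8.75 to 11.2).

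SNAI1, which represses epithelial genes as mesoderm forms, stood at 110.1 CPM in presomitic mesoderm cells and 15.7 CPM in the other barcodes (7.03-fold, 6.37 to 7.74). RSPO3, which strengthens WNT signals, stood at 183 and 38.6 CPM (4.75-fold, 4.41 to 5.10). PCDH19, a protocadherin, was 7.08-fold higher, EVX1, a posterior homeobox factor, 6.20-fold higher, ITGA5, the fibronectin receptor subunit, 3.04-fold higher and CDH2, N-cadherin, 2.46-fold higher. EFNB2 (2.03-fold) and TWIST1 (3.96-fold) were the 2 lower genes. Fibronectin itself, FN1, was at 181 and 199 CPM. All of SNAI1, RSPO3, APLNR and CDH2 were found in more than 60% of presomitic mesoderm cells, and MIXL1 in far fewer.

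The boundary genes were concentrated in few cells. MESP2 was found in 20 presomitic mesoderm cells, and 11 cells with 5 or more UMIs held 304 of its 318 UMIs (95.6%), up to 70 in 1 cell. Its ratio to the other barcodes was 9.28 (8.12 to 10.6), but among barcodes between the quartiles of the cells' UMI counts its log2 ratio was 1.90 in place of 3.22. MESP1, its paralogue, had a ratio of 4.44 (3.54 to 5.52), but 47 of its 98 UMIs lay in 1 cell, and among the same barcodes its log2 ratio was −0.82 in place of 2.16. RIPPLY1 had 138 UMIs, of which 106 lay in 1 cell. Its log2 ratio of −0.02 became −3.63 with 2 or more TBX6 UMIs required, and −3.20 within the 2 clusters that held most of the cells. RIPPLY2, with 38 UMIs in 15 cells, was 6.73-fold higher (4.56 to 9.74), with a log2 ratio of 1.25 in place of 2.76 among those barcodes.

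The NOTCH ligands DLL1 and DLL3 were higher, and most other NOTCH genes were not. Of 21 tested genes 3 were called higher, DLL3 (11-fold, 9.98 to 12.2), DLL1 (9.21-fold, 8.59 to 9.87) and LFNG (2.14-fold, 1.70 to 2.67), and 5 lower, with a median log2 ratio of −0.08. DLL1 was found in 74.0% of presomitic mesoderm cells and 14.3% of the other barcodes, and DLL3 in 60.8% and 9.60%. HES1, the widespread effector of NOTCH, was 2.41-fold lower (2.12 to 2.74), at 50.6 CPM in presomitic mesoderm cells and 122 CPM in the other barcodes, and HEY2 was 3.99-fold lower. The receptors and the nuclear effector were near the level of the other barcodes: NOTCH2 had a ratio of 0.943 (0.814 to 1.09), NOTCH3 1.11 (0.909 to 1.33) and RBPJ 1.10 (0.988 to 1.22). DLL4, the ligand of blood vessels, was at 0 UMIs in presomitic mesoderm cells and 158 in the other barcodes. NOTCH1 had 4 UMIs in presomitic mesoderm cells, too few in the library to be called.

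Every FGF ligand on the list was higher. FGF3 stood at 127 CPM in presomitic mesoderm cells and 3.10 CPM in the other barcodes (40.9-fold, 35.8 to 46.8) and was found in 60.0% of the cells, against 2.01% of the other barcodes. FGF4 stood at 31.6 and 0.851 CPM (37.1-fold, 28.5 to 48.5), and FGF8 at 42.8 and 3.13 CPM (13.7-fold, 11.5 to 16.3). FGF4 and FGF8 are the ligands on which the mouse presomitic mesoderm depends. FGF10 was 5.82-fold higher. FGF18 was 2.32-fold higher, and its log2 ratio of 1.22 became 0.55, under the 2-fold mark, between the quartiles of UMI counts.

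Several genes that FGF signals induce were higher. SPRY4, a feedback inhibitor, stood at 70.3 CPM in presomitic mesoderm cells and 7.34 CPM in the other barcodes (9.58-fold, 8.42 to 10.9), the factor ETV4 was 4.12-fold higher, the inhibitor IL17RD 3.71-fold and the ERK phosphatase DUSP6 2.62-fold (407 and 155 CPM). SPRY2, at a ratio of 0.947 (0.799 to 1.12), DUSP4, at 0.979 (0.808 to 1.18), and ETV5, at 1.24 (0.586 to 2.34), were not called. FGFR1 had a ratio of 1.48 (1.36 to 1.61), FGFR2 was 3.12-fold lower and FGFR4 2.45-fold lower. In all, 9 of 19 tested FGF genes were higher and 2 lower, with a median log2 ratio of 0.57.

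Among WNT genes 9 of 27 tested were higher and 2 lower, with a median log2 ratio of 0.39. WNT8A had the highest ratio of the genes called on these lists: 36.1 CPM in presomitic mesoderm cells and 0.561 CPM in the other barcodes (64.3-fold, 47.9 to 87.3). It was found in 105 of the cells (24.8%) and 0.440% of the other barcodes. WNT3A stood at 45.5 and 2.54 CPM (17.9-fold, 14.9 to 21.4), WNT5B at 86.0 and 10.8 CPM (8.0-fold, 7.14 to 8.94) and WNT5A at 80.5 and 21.5 CPM (3.75-fold). Of the WNT targets and effectors, SP5 was 4.49-fold higher, SP8 2.84-fold and LEF1 2.54-fold, and AXIN2 had a ratio of 1.85 (1.56 to 2.19). The receptor FZD10 was 3.00-fold higher. SFRP2, a secreted WNT inhibitor, was 2.95-fold lower, and CTNNB1 was at 251 and 314 CPM.

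Of 13 tested retinoic acid genes 4 were higher and 5 lower. CYP26A1, an enzyme that breaks retinoic acid down, stood at 238 CPM in presomitic mesoderm cells and 20.5 CPM in the other barcodes (11.6-fold, 10.8 to 12.5) and was found in 40.2% of the cells. CYP26B1, a second such enzyme, had a ratio of 0.954 (0.451 to 1.79), and its log2 ratio was −1.79 within the 2 clusters that held most of the cells. ALDH1A2, the enzyme that makes it, was 2.81-fold lower, at 7.34 and 20.6 CPM, and RDH10, which makes its precursor, was 2.17-fold lower. RARB, a receptor gene that retinoic acid itself induces, was 5.74-fold lower (3.20 to 11.5), and RARG was 2.98-fold higher. STRA6, a receptor for retinol uptake, stood at 136 and 55.1 CPM. The median log2 ratio of the list lay at −0.00098 and took values from −0.52 to 0.38 under the other settings.

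**Figure D1:**
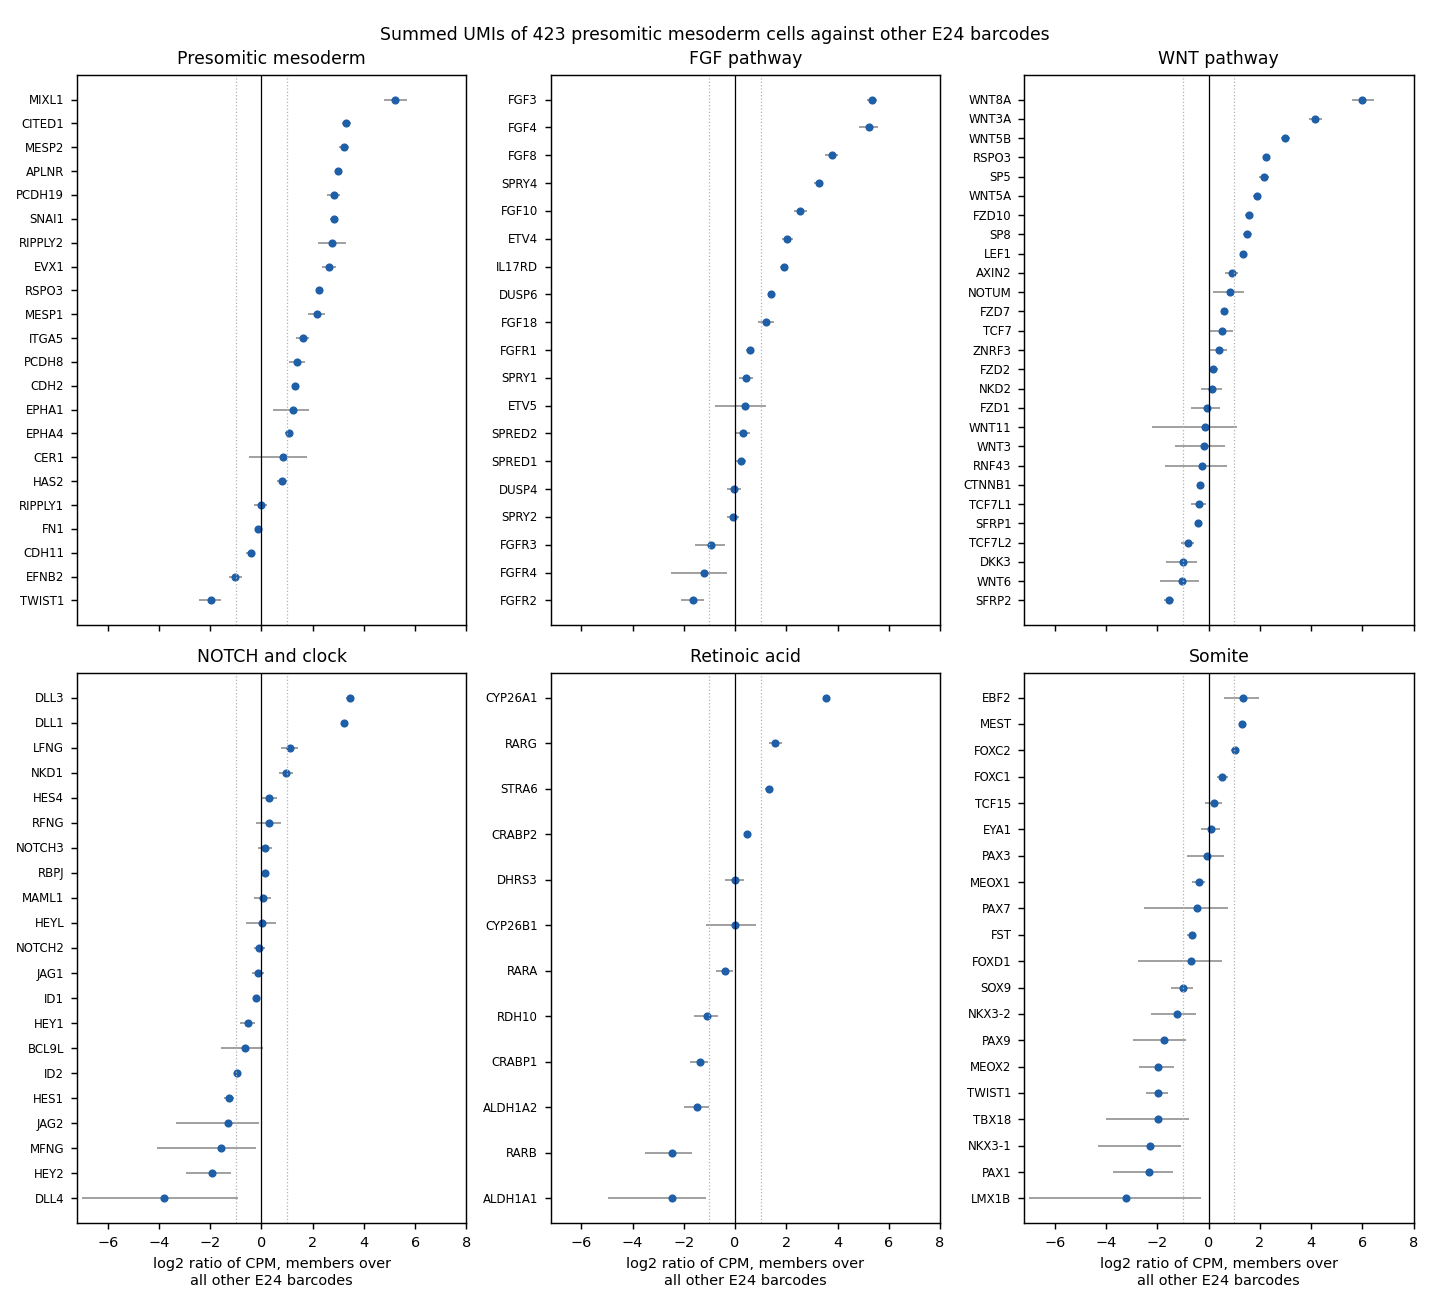
Log2 ratio of CPM in presomitic mesoderm cells over all other E24 barcodes for genes of the presomitic, NOTCH, FGF, WNT, retinoic acid and somite lists, with exact 95% intervals; dotted lines mark 2-fold and the axis is limited to −7 to 8. FGF3, FGF4, WNT8A and MIXL1 lie far to the right of the line, and HES1, ALDH1A2, RARB and PAX1 to the left of it.

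Genes of the caudal end of the embryo were higher in 11 of 15 tested, with 1 lower and a median log2 ratio of 1.78. T (brachyury), the T-box factor of the streak, stood at 108 CPM in presomitic mesoderm cells and 6.65 CPM in the other barcodes (16.3-fold, 14.6 to 18.3) and was found in 220 of the cells (52.0%). The caudal homeobox factors CDX1, CDX4 and CDX2 were 4.93-fold, 4.62-fold and 3.43-fold higher. GREB1 was 3.01-fold higher and GDF11, a signal for trunk to tail transition in the mouse, 2.80-fold higher. SOX2, a neural and neuromesodermal factor, was the lower gene, at 32.0 and 107 CPM, and NKX1-2, which marks neuromesodermal progenitors, had 9 UMIs and a ratio of 0.616 (0.279 to 1.18).

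Of 21 tested somite genes 3 were higher, 8 lower and 10 within 2-fold, with a median log2 ratio of −0.67. PAX1 (5.36-fold), PAX9 (3.56-fold), NKX3-2 (2.45-fold) and TBX18 (4.41-fold), factors of the differentiating somite, were lower. With likely doublets removed the log2 ratio was −4.35 in place of −2.32 for PAX1, −2.86 in place of −1.75 for PAX9, −2.16 in place of −1.24 for NKX3-2 and −4.83 in place of −1.97 for TBX18. MEOX2, a homeobox factor of the somite, was 3.98-fold lower. MYF5 and MYOD1, the muscle factors, were at 0 UMIs in presomitic mesoderm cells and 13 and 2 UMIs in the other barcodes. Both had too few UMIs in the library to be called, so their zeros show no difference. The factors of the newly formed somite were near the others: MEOX1 had a ratio of 0.770 (0.644 to 0.914), TCF15 1.14 (0.896 to 1.43) and PAX3 0.940 (0.552 to 1.5). FOXC2 was 2.02-fold higher, but its log2 ratio of 1.01 became 0.36, and that of MEOX1 was −1.59 in place of −0.37, where the rule was applied to thinned barcodes. EBF2, the higher gene with few UMIs (22), had a log2 ratio of 1.34 and 0.66 with 2 or more TBX6 UMIs required. MEST, an imprinted gene high in mesoderm, stood at 3277 and 1311 CPM.

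HOX genes, which mark position along the body axis, were higher in 19 of 33 tested and lower in none, with a median log2 ratio of 1.15. Summed over each paralogue group, group 10 had the highest ratio, 4.02 (3.76 to 4.28), followed by group 11 at 3.38 (2.75 to 4.13) and group 1 at 3.28 (3.10 to 3.48), and the interval of group 11 overlaps those of both others. Groups 6 to 9 had ratios between 2.39 and 2.77, groups 2 to 4 between 1.77 and 2.06, and group 5 a ratio of 0.951 (0.853 to 1.06). Group 13 had 5 UMIs in presomitic mesoderm cells and a ratio of 0.552 (0.177 to 1.31). HOXC10 stood at 68.9 CPM in presomitic mesoderm cells and 9.31 CPM in the other barcodes (7.40-fold, 6.53 to 8.38) and HOXD11 at 14.3 and 2.83 CPM (5.05-fold, 3.84 to 6.56). HOXB5 (0.651, 0.532 to 0.788) and HOXB6 (0.650, 0.531 to 0.788) were the members farthest below 1. Between groups 1 and 11 the ratios were thus lowest at group 5.

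**Figure D2:**
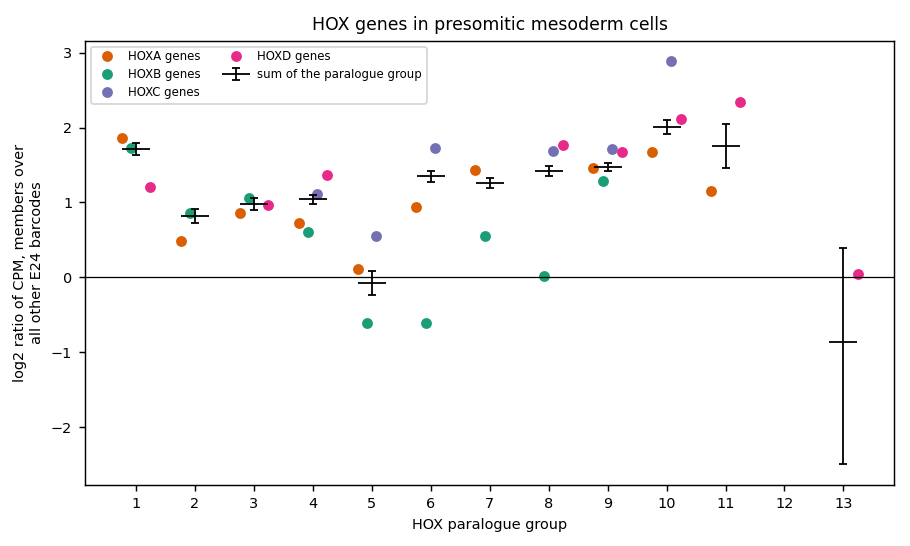
Log2 ratio of CPM in presomitic mesoderm cells over all other E24 barcodes for single HOX genes and for the sums of each paralogue group, with exact 95% intervals. Groups 1, 10 and 11 stand highest, and group 5 lies near 0 on the log2 axis.

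Cell cycle and glycolysis genes were near the level of the other barcodes. None of 18 S phase genes and none of 18 G2 and M phase genes was called, with median log2 ratios of 0.0045 and 0.11, and of 23 glycolysis genes none was higher and 1, ENO2, was lower (median 0.14). The aldolase ALDOA had a ratio of 1.66 (1.51 to 1.82) and the lactate exporter SLC16A3 1.93 (1.76 to 2.1). None of 11 stress genes was called (median −0.62). Of 11 epithelial genes 6 were lower (median −1.35), among them KRT18 (3.14-fold) and KRT8 (2.79-fold). Of 18 matrix genes 7 were lower (median −0.72), POSTN by 10.2-fold and COL3A1 by 5.76-fold, and COL5A2 was the higher one, at 273 and 90.4 CPM (3.02-fold, 2.85 to 3.20). Of 18 BMP and related genes BMP7 (2.09-fold) and GDF11 were higher, and BMP4 (3.26-fold), BMP5 (3.45-fold) and TGFB2 (2.77-fold) lower (median −0.52). SNAI2 was 2.86-fold lower, in contrast to its paralogue SNAI1.

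Outside the lists, the genes with the clearest excess included several not usually used as mesoderm markers. PPP1R17, a phosphatase inhibitor known from Purkinje neurons, stood at 270 CPM in presomitic mesoderm cells and 9.17 CPM in the other barcodes and was found in 64.5% of the cells. VWA2, a matrix protein, stood at 201 and 10.5 CPM, PPP1R14C, a phosphatase inhibitor, at 172 and 14.3 CPM, and the keratin KRT23 at 39.3 and 1.44 CPM. FAM57B (18.8 and 0.616 CPM), CPA6 (45.9 and 2.57 CPM), FAS (18.1 and 1.15 CPM), CCDC141, FAM219A, RBFOX1 and AP3B2 completed the set with 3 hormone genes. Of these, PENK (proenkephalin) stood at 122 and 6.88 CPM, with 20.1% of the cells positive and up to 58 UMIs in 1 cell, NPY at 61.1 and 4.24 CPM, and PRL at 13 and 1.09 CPM. Genes with the clearest deficit were those of liver and gut (AHSG, FGB, TTR, APOC3, APOA1, RBP4, FGG, AFP, APOB, SPINK1), of blood and immune cells (ARHGDIB, AHSP, CCL3), SPP1 and the neuronal STMN2. AHSP was found in 1.89% of presomitic mesoderm cells and 2.05% of the other barcodes. Its log2 ratio of −4.32 became −0.89, under the 2-fold mark, between the quartiles of UMI counts. APOA1 stood at 5.91 CPM in presomitic mesoderm cells and 149.5 CPM in the other barcodes, and APOC3, with no UMI in presomitic mesoderm cells, was at least 24.4-fold lower against the limit of 3 counts.

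The cells were then set against 3 related sets of barcodes, none holding any of them. The first was the 158 barcodes with TBX6 but without the other rule genes (median 10963 UMIs). In the clustering of the library 36 of them lay in cluster 8, which held most presomitic mesoderm cells, and 3 in cluster 9. Cluster 12 (led by RIPPLY1) held 23 and cluster 10 (led by PAX8) 16, with the rest spread over other clusters. The ratios are thus against a mixed set, and 6 of 7 lateral plate markers were lower in presomitic mesoderm cells. Against these 158 barcodes 5.8% of all genes were higher and 9.6% lower, and of the caudal genes 12 of 15 were higher and none lower. T stood at 108 CPM in presomitic mesoderm cells and 4.39 CPM in those barcodes (24.7-fold, 12.5 to 57.6), CYP26A1 at 238 and 12.1 CPM (19.8-fold, 13 to 31.7) and WNT5B at 86.0 and 7.13 CPM (12.1-fold). WNT3A (223 UMIs) and MIXL1 (108 UMIs) had no UMI in those barcodes, so they were at least 27.6-fold and 13.4-fold higher. The hormone genes PENK and KISS1 were 31.8-fold and 23.9-fold higher. Somite genes were lower in 12 of 21 and higher in 2: MEOX1 stood at 27.7 and 97.6 CPM (3.52-fold lower) and RIPPLY1 at 28.1 and 286 CPM (10.2-fold lower). MESP2 stood at 64.8 and 71.3 CPM (ratio 0.909, 0.739 to 1.12). HBZ was 10.2-fold lower in presomitic mesoderm cells, but 893 of the 999 HBZ UMIs in the other set lay in 1 barcode, and with likely doublets removed its log2 ratio was −0.04.

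The second was 668 barcodes with MEOX1 and TCF15, genes of somites (median 12481.5 UMIs). In the clustering of the library, 265 of them lay in cluster 13 (led by MYH8, DMRT2 and FMOD), 171 in cluster 12 (led by RIPPLY1) and 126 in cluster 11 (led by PAX1 and PAX9). Against these 7.74% of all genes were higher and 6.19% lower. Caudal genes were higher in 13 of 15, WNT genes in 14 of 27 and HOX genes in 22 of 33, with none lower in any of these lists, and 13 of 19 tested somite genes were lower, none were higher, and their median was −2.30 on the log2 scale. WNT8A and MIXL1 each had 1 UMI in the somite barcodes, against 177 and 108 UMIs in presomitic mesoderm cells. FGF3 stood at 127 and 2.67 CPM (47.4-fold, 31.5 to 74.5), HOXC10 at 68.9 and 1.45 CPM (47.6-fold, 27.5 to 90.3), T at 108 and 4.34 CPM (25-fold, 18 to 35.5) and CYP26A1 at 238 and 10.2 CPM (23.3-fold, 18.8 to 29.1). DLL1 (4.88-fold) and DLL3 (6.09-fold) were higher by less. Lower were MEOX2 (14.8-fold), PAX1 (14.3-fold), RIPPLY1 (7.57-fold), FST, an activin inhibitor (6.72-fold), and ALDH1A2 (4.67-fold).

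The third was 137 barcodes with T and SOX2, the pair that marks neuromesodermal progenitors (median 12510 UMIs), against which 6.22% of all genes were higher and 9.72% lower. In the clustering of the library 77 of these barcodes lay in cluster 9 and 21 in cluster 17 (led by KYNU and FGB). Cluster 2 (led by PAX6) held 13 and cluster 22 (led by HCRT) 6, with the rest spread over other clusters. The ratios are thus again against a mixed set. Here the posterior genes did not separate the sets: of 13 tested caudal genes 1 was higher and 1 lower, and no HOX gene was higher and 4 of 33 lower. CYP26A1 stood at 238 CPM in presomitic mesoderm cells and 248 CPM in the T and SOX2 barcodes (ratio 0.962, 0.865 to 1.07), WNT5B at 86.0 and 82.2 CPM (1.05, 0.871 to 1.26) and FGF8 at 42.8 and 42.1 CPM (1.02, 0.785 to 1.33). Presomitic genes did separate them, with 13 of 22 higher and 2 lower: SNAI1 stood at 110.1 and 3.04 CPM (36.2-fold, 16.5 to 99.0), APLNR at 296 and 10.1 CPM (29.2-fold, 18.8 to 47.9), DLL3 at 120.1 and 7.61 CPM (15.8-fold) and RSPO3 at 183 and 17.2 CPM (10.6-fold). FGF4 had 155 UMIs in presomitic mesoderm cells and 1 in the T and SOX2 barcodes. Neural tube markers were lower in 4 of 5, PAX6 by 6.74-fold (4.42 to 10.5), and NKX1-2 was 13-fold lower. S100A6 had a log2 ratio of −2.45, which turned to 0.93 with likely doublets removed.

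**Figure D3:**
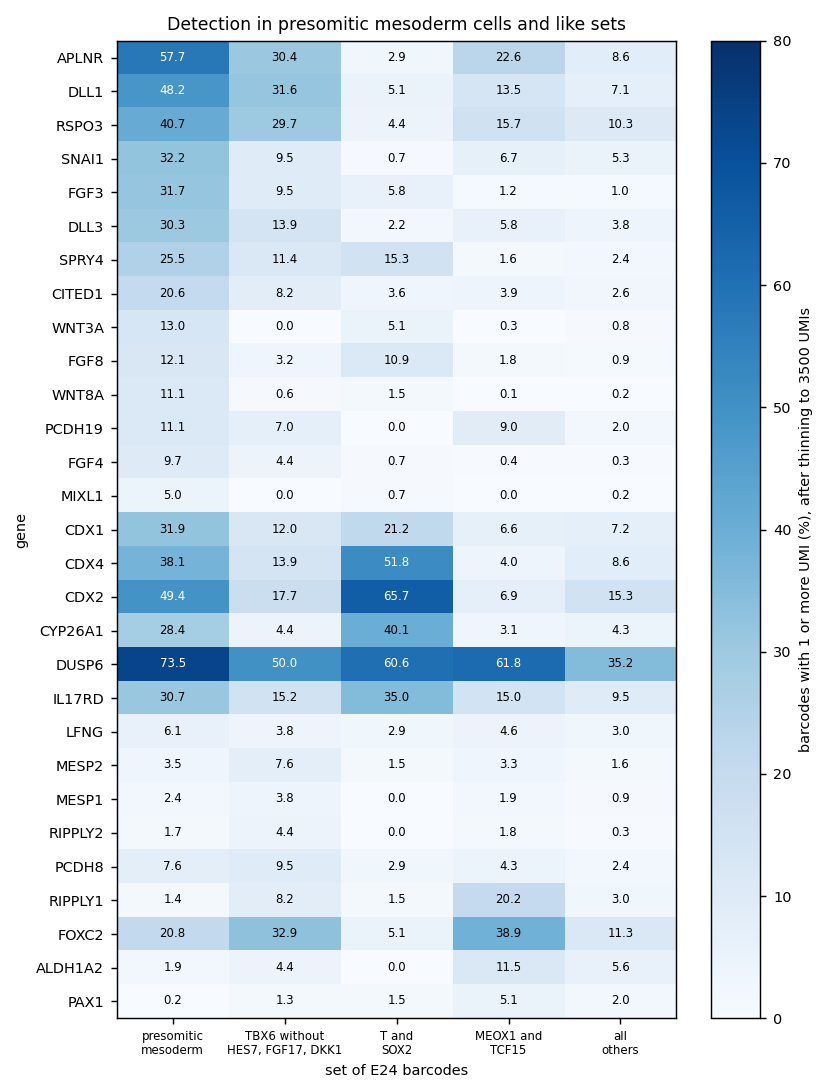
Percent of barcodes with 1 or more UMIs after thinning to 3500 UMIs, for selected genes (down the page) in presomitic mesoderm cells, in barcodes with TBX6 but none of the other rule genes, with T and SOX2, with MEOX1 and TCF15, and in all other E24 barcodes. APLNR, found in 57.7% of thinned presomitic mesoderm cells, was found in 2.92% of T and SOX2 barcodes; CYP26A1, at 28.4%, was found in 40.1% of those barcodes.

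Presomitic mesoderm cells also differed among themselves. A UMI of T, without any of MESP2, RIPPLY2, MEOX1 and TCF15, was held by 193 cells, called T-positive cells here (median 10742 UMIs). One of those 4 genes without T was held by 54 cells, called anterior-gene cells (median 12393.5 UMIs), both by 27 and neither by 149. Since the subsets were cut on single UMIs, an absent gene may be one that was not captured. Between T and anterior-gene cells 10.3% of all genes were 2-fold or more higher and 12.9% lower. A gene with no UMI in either subset had a log2 ratio of −1.62 and was counted as lower. Caudal genes were higher in T-positive cells in 11 of 14, with 1 lower, and somite genes lower in 13 of 19, with 1 higher.

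CYP26A1 stood at 441 CPM in T-positive cells and 18 CPM in anterior-gene cells (24.5-fold, 14.3 to 46.2). WNT3A stood at 81.7 and 8.31 CPM (9.83-fold, 4.43 to 27.1) and WNT5B at 146 and 15.2 CPM (9.60-fold, 5.29 to 19.4). CDX4 was 5.99-fold, FGF8 5.08-fold, CDX2 4.97-fold and MIXL1 7.09-fold higher in T-positive cells. The HOX genes with the largest excess in T-positive cells were from group 10: HOXD10 (91 and 2 UMIs, 14.8-fold, 3.99 to 124), HOXC10 (7.97-fold, 4.12 to 17.7) and HOXA10 (3.96-fold, 2.75 to 5.92). Of the hormone genes NPY was 39.4-fold (10.8 to 327), KISS1 13.4-fold and PENK 12.6-fold higher. FGF17 (9.17-fold), DKK1 (8.22-fold) and HES7 (4.14-fold) were higher as well, but each cell had to hold at least 1 of them to be taken.

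Anterior-gene cells had the higher levels of FOXC2, at 15.8 CPM in T-positive cells and 300.5 CPM in anterior-gene cells (19.0-fold lower in T-positive cells, 13.3 to 28), FGF18 (0.902 and 107 CPM), MESP1 (6.32 and 112 CPM) and EYA1 (2.26 and 42.9 CPM), a factor of the somite and other tissues. Of the 81 MESP1 UMIs in anterior-gene cells, 47 lay in 1 cell. The NOTCH effectors HES1 and HEY1 were 4.0-fold and 6.62-fold lower in T-positive cells, EFNB2 4.91-fold, the frizzled receptor FZD7 3.41-fold and DLL1 2.15-fold lower. FGF4 was 3.89-fold lower in T-positive cells (11.7 and 45.7 CPM), opposite to FGF8 and FGF3. RIPPLY1 stood at 2.26 and 181 CPM, but 106 of the 131 UMIs in anterior-gene cells lay in 1 cell; its log2 ratio of −6.20 was −2.25 within the 2 clusters that held most cells. Other genes had ratios near 1 across the split: DUSP6 had a ratio of 1.03 (0.897 to 1.18), LEF1 0.986 (0.80 to 1.22), SPRY4 0.844 (0.624 to 1.15) and DLL3 1.23 (0.946 to 1.62).

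The 20 cells with MESP2 (median 14031 UMIs) were set against the 403 without it (median 10550 UMIs), a comparison chosen after values were seen. By the log2 ratio with its pseudocount, 16.8% of all genes were counted as higher and 9.04% as lower. The share counted as higher includes genes with no UMI in either set, such as DLL4 and LMX1B. The pseudocount and the smaller MESP2 set give these a log2 ratio of 4.08. ALDH1A1, with 0 and 3 UMIs, was likewise at 1.27. The 16.8% is therefore no measure of genes raised in MESP2 cells. MESP1 stood at 299 CPM in MESP2 cells and 3.45 CPM in the others (86.6-fold, 50.3 to 159) and FGF18 at 234 and 8.20 CPM (28.5-fold, 18.8 to 43.7). Only 8 of the 20 MESP2 cells held MESP1, and 47 of its 82 UMIs there lay in 1 cell. DLL1 stood at 795 and 198 CPM (4.01-fold, 3.45 to 4.66), HEY1 at 106 and 16.8 CPM (6.28-fold), HES1 at 189.8 and 42.3 CPM (4.48-fold), FOXC2 at 471 and 68.9 CPM (6.84-fold) and PCDH8, the protocadherin of the forming somite, at 80.3 and 15.5 CPM (5.16-fold). Lower were DKK1 (10.9 and 163 CPM), FGF17 (94.9 and 535 CPM) and HOXC10 (7.30 and 72.5 CPM), and WNT3A and PENK had no UMI in MESP2 cells. DKK1 and FGF17 are rule genes, and each cell had to hold at least 1 of HES7, FGF17 and DKK1 to be taken. DLL3 (ratio 0.907, 0.606 to 1.31) and DUSP6 (1.17, 0.969 to 1.40) had intervals that span 1. RIPPLY1 had a log2 ratio of 1.38, which was −3.84 with likely doublets removed and −0.25 within the 2 main clusters. Its 18 UMIs in MESP2 cells came from 1 cell, and 106 of its UMIs in the other cells also lay in 1 cell.

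Other genes varied with the rule genes that a cell held beside TBX6. The 175 cells with DKK1 beside HES7 or FGF17 had WNT8A at 62.4 CPM, T at 134 CPM and MESP2 at 0.953 CPM. The 233 cells with HES7 or FGF17 but no DKK1 had WNT8A at 17.6 CPM, T at 95.5 CPM and MESP2 at 118 CPM. The 15 cells taken through DKK1 alone held no UMI of T, WNT3A, WNT8A or MIXL1, and had FOXC2 at 157 CPM and MEOX1 at 78.6 CPM. These 15 are 3.55% of the cells, and without DKK1 in the rule 408 remained.

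**Figure D4:**
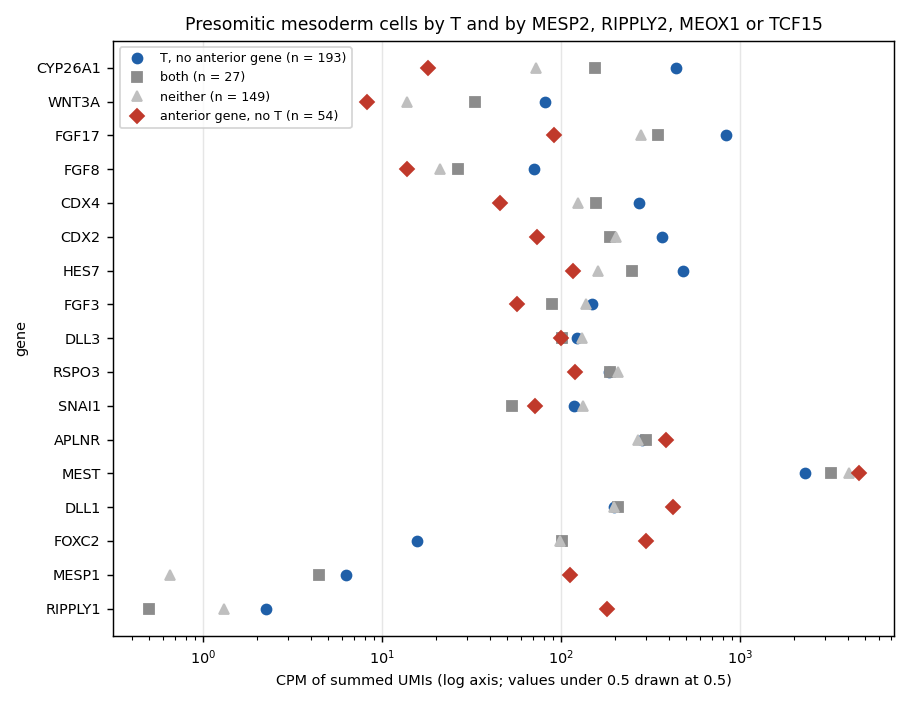
CPM on a log axis of 17 genes in 4 subsets of presomitic mesoderm cells, with T only, with both, with neither and with an anterior gene (MESP2, RIPPLY2, MEOX1 or TCF15) only; values under 0.5 are drawn at 0.5. CYP26A1 stood at 441 CPM in cells with T only and 18 CPM in cells with an anterior gene only, FOXC2 at 15.8 and 300.5 CPM.

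Clustering of the whole library on 2000 variable genes without the rule genes gave 29 clusters, and 21 of them held presomitic mesoderm cells. Cluster 8, with 420 barcodes, held 295 of the cells (69.7%), which made up 70.2% of it; PPP1R17, TBX6, FGF3, HES7 and DKK1 led its genes. Cluster 9 held 68 (16.1%) and also 77 of the 137 T and SOX2 barcodes, with FGF17, CDX4 and CYP26A1 in the lead. Of the 54 anterior-gene cells 38 lay in cluster 8 and 2 in cluster 9, and of the 193 T-positive cells 132 and 51. Cluster 10, led by PAX8, IL24 and WT1, held 14 cells, cluster 17, led by KYNU, FGB and AGR3, held 11, and cluster 12, led by RIPPLY1 and holding 171 of the 668 somite barcodes, held 7. Gene levels and clusters use the same counts, so the leading genes are no separate evidence.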

How the data were processed

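The libraries were made from dissociated tissue by droplet capture, per the labels' protocols, which name both v2 chemistry and v3 kits. Cell Ranger 2.1.0 is named in the submitters' processing notes. The deposited matrices hold raw UMI counts for genes and barcodes, and the authors had already picked the barcodes that are cells. For genome build and annotation, nothing is given in the sources used here. The title of the E24 library holds more than 1 ID, which may be separate embryos; all its barcodes end in 1 suffix, and it was treated as 1 sample.

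Each table held 26223 gene rows. A blank-named row (1) held 0 UMIs, a share of 0%. Of 9499 rows with LOC identifiers, 3867 were found in the RefSeq table of an assembly of the same species (MFA8v1.1) and 673 were given a symbol, CYP26A1, CYP26B1, LDHA, PAX7 and RFNG among them. NRARP, TBX16, SOX1, HSPA1A and some HOX genes are not among the names. Overlapping or antisense genes cannot be told apart, since the counting of strand is not stated in the sources used here.

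The members and gene lists were chosen with earlier results of these data known. Barcodes of each set were summed and scaled to CPM. Ratios have exact conditional binomial intervals and shares exact Clopper-Pearson intervals, at 95%, and both cover counting error only. Genes with no UMI were bounded at 3 counts over the set, and log2 ratios used a pseudocount of 0.5 UMIs. A gene with no UMI in either set was therefore called lower against the TBX6 barcodes (log2 ratio −1.43) and the T and SOX2 barcodes (−1.31). Between subsets of the cells such a gene was counted as lower in T-positive cells (−1.62) and as higher in MESP2 cells (4.08). Genes defining a set were left out of its comparisons, but HES7, FGF17 and DKK1 were kept where subsets of the cells were compared. Outside the lists, up to 15 genes were named in each direction, ordered by the interval bound nearest 1, with 50 or more UMIs in the higher set, and up to 6 were considered against each related set. Barcodes were thinned to 3500 UMIs (seed 0), which left out 0. Clusters used 30 components, 15 neighbours and Leiden resolution 1 after scaling to 10000 UMIs (scanpy 1.11.5, igraph 0.11.9, scikit-learn 1.9.0). Doublets were set at 0.8% per 1000 barcodes (8.51%). Scripts ran in Python 3.11.15 with numpy 2.4.6, scipy 1.17.1 and pandas 2.3.3, figures in matplotlib 3.10.9, and the ratio code was tested on simulated data. The other settings tried were other TBX6 thresholds, second genes, filters, depths, barcode weights, comparison sets and removal of doublets. No sequence is shown, and some genes that the naming rule gives are not reported here.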

Additional observations from a re-analysis of the deposited data

Results flagged for a closer look

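In the E28 library, whose tissue was the urogenital region, 6 of 5028 barcodes (0.119%, exact 95% interval 0.0438 to 0.260%) also passed the rule for presomitic mesoderm cells, above the limit of 0.0597% that a count of 0 would allow, and they belong to no comparison in the report. At E31 1 barcode and at E37 2 barcodes passed, against 423 of 10639 at E24. Of the 6, 5 passed through DKK1, with 45 UMIs of it, and 1 through FGF17, with 1 UMI. They held no UMI of HES7, T, FGF3 or MIXL1, and had 5 UMIs of DLL3, 2 of MEOX1 and 1 of MESP2. TBX6 stood at 11 CPM in the E24 library and at 1.49, 0.789 and 0.994 CPM in the E28, E31 and E37 libraries.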

How the results depend on the processing

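No paired analysis was possible because each stage has 1 library and no replicates. The number of cells depended on the rule: 261 with 2 or more TBX6 UMIs and 206 where the rule was applied to thinned barcodes, against 423, while 408 remained without DKK1, 367 with likely doublets removed and 363 within the 2 main clusters, a setting added after the data were seen. The filter on low counts set the number of genes called: 235 higher and 727 lower with 500 or more UMIs required, and 4474 higher and 2392 lower with no filter, against 455 and 1485. Under the other settings 459 to 633 genes were higher and 1494 to 1810 lower, and the requirement of 2 or more TBX6 UMIs kept 413 of the 455 higher genes. Medians of the 8 lists tried moved by less than 1.5 times under every setting, the retinoic acid and NOTCH medians lying on both sides of 0. Of 194 single-gene ratios 64 moved by over 1.5 times under some setting and 20 of them crossed the 2-fold mark. Among the 20 were AHSP, with 8 UMIs in presomitic mesoderm cells, but also FOXC2 with 448, RIPPLY1 with 138 and MEOX1 with 136. Of the ratios called at 2-fold, those whose log2 value changed sign were those of MESP1 (−0.82 between the quartiles of UMIs), of RIPPLY1 between MESP2 cells and other cells (−3.84 with likely doublets removed and −0.25 within the 2 clusters), of RIPPLY1 against T and SOX2 barcodes (−1.34 within the 2 clusters) and of S100A6 against the same barcodes (0.93 with likely doublets removed); RIPPLY1 and MESP1 rested on 1 cell each for a large part, and for S100A6 the cause was not tested. A count of 0 over the 423 cells allows a share of up to 0.709% of cells with a captured UMI, which is no limit on cells that express the gene.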

Other observations

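In the gene order of the RefSeq annotation of the assembly MFA8v1.1, FAM57B (named TLCD3B there) is the third gene from TBX6. It stood at 18.8 CPM in presomitic mesoderm cells and 0.616 CPM in the other barcodes (30.5-fold, 22.0 to 42.3). The genes between them did not share that ratio: PPP4C had 1.14 (1.08 to 1.21) and ALDOA 1.66 (1.51 to 1.82). On the other side, YPEL3, next to TBX6, had 2.24 (1.95 to 2.56), GDPD3 0.538 (0.214 to 1.12), MAPK3 1.04 (0.854 to 1.25) and CORO1A 0.70 (0.50 to 0.954). Of the genes within 4 places of HES7 that had 100 or more UMIs, PER1, VAMP2, TMEM107 and BORCS6 had ratios of 0.890, 1.23, 1.18 and 1.19, and GUCY2D, with 1 UMI in presomitic mesoderm cells and 208 in the other barcodes, had 0.108 (0.00273 to 0.61). FGF4 and FGF3, 37.1-fold and 40.9-fold higher, are next to each other in the same order.

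NPPA, a natriuretic peptide gene of the heart, was found in 33.3% of presomitic mesoderm cells and 2.09% of the other barcodes, with 255 and 685 UMIs, while NPPB, a second such gene, had 5 and 1139 UMIs. KISS1, which encodes kisspeptin, was found in 38.3% of presomitic mesoderm cells and 7.90% of the other barcodes. NPPA and KISS1 were chosen after their values were seen, no list of hormone genes was examined, and NPPA is also a leading gene of cluster 12, which is led by RIPPLY1.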
